A study of Mus musculus with 6 samples.

Results

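Cardiac fibroblasts are the cells that make and maintain the connective tissue of the heart, and 10 genes that mark their identity were described here in mouse heart ventricle: Pdgfra, Ddr2, Tcf21, Pi16, Scara5, Abca8a, Dpt, Pcolce2, Gsn and Dpep1. They are a list of gene names drawn up with earlier results of these data known, though no measured value enters the rule. All 10 were found, each as 1 row, among the 18181 genes of the deposited table. Their level was compared between ventricles of C57BL6 mice, an inbred laboratory strain, aged 6 to 8 weeks (young) or 24 to 26 months (aged). No other treatment or allele is given, and the genotype in the labels is that of the strain. Each age had 3 libraries of poly(A)-selected RNA from separate samples. Nothing in the labels ties a sample to a mouse of its own or names a sex, so a p-value here reflects the spread between samples, which may be technical.

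Fibroblasts of the ventricle descend mostly from the epicardium, the outer layer of the heart, and in the resting adult heart they are held in a quiescent state that secretes and renews matrix. On injury they divide, turn on contractile and matrix genes and become myofibroblasts. The markers described here belong to the resting state. Pdgfra and Ddr2 encode cell surface receptors, for platelet-derived growth factors and for fibrillar collagen, and Tcf21 encodes a transcription factor that mouse epicardial cells need to become fibroblasts. Pi16 marks fibroblasts of the outer vessel wall. Dpt, Pcolce2 and Gsn encode secreted or cytoskeletal proteins, and Scara5, Abca8a and Dpep1 proteins of the membrane. No cells were sorted, so in this bulk RNA fewer cells of a type and less RNA per cell cannot be told apart.

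The values are FPKM, fragments scaled by transcript length and by library total, so levels of different genes can be compared per length. Low values of genes with a single transcript were searched for the step that 1 fragment makes. The peak put the libraries at an estimated 7800000 to 11900000 mapped fragments, the range over 6 libraries and over 2 assumptions on fragment length. The step was sought only in a fixed narrow window, so a depth far outside this range could not have been found. All fragment counts and counting errors below rest on this estimate. At this depth and with the longest coding transcript of each gene, a marker rested on an estimated 126 (Tcf21, lowest library) to 17297 (Gsn, highest library) fragments. Libraries correlated at 0.981 to 0.995 within an age and at 0.96 to 0.979 between ages, across genes, which are not independent replicates. Aged replicates 1 and 2 held keratin transcripts of stratified epithelium. The 12 genes of that list summed to 426 and 646 FPKM there and to 89.3 in aged replicate 3, against 101 to 110.5 in young. Perp, 1 of the 12, alone gave 100.4 to 109.8 FPKM in young and 86.4 in aged replicate 3, most of each sum. In aged replicates 1 and 2 Perp was at a similar 93.8 and 108 FPKM. Krt13, a keratin of such epithelia, was at 152 and 250.3 FPKM in those libraries and listed at 0 in the other 4. The 12 mitosis genes summed to 23.9 FPKM in young replicate 1, to 58.03 and 59.5 in the other young libraries and to 9.02 to 13.1 in aged. Results are given below without these libraries where they bear on a call.

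The 10 markers did not move as a block between young and aged ventricle. With limma on log2(FPKM + 1) over 11860 tested genes, 2 markers were higher in aged (Dpep1 and Scara5), 2 were lower (Dpt and Tcf21) and 6 did not pass at an adjusted p of 0.05. Over all tested genes 9.32% were called higher and 17.1% lower, 26.4% in all, so 4 of 10 is not far from the background. The median log2 difference of the 10 markers was -0.17, beside -0.06 for all tested genes. In 8 of the 10 the 3 aged values lay wholly above (Dpep1, Scara5, Gsn) or wholly below (Dpt, Tcf21, Ddr2, Pcolce2, Abca8a) the 3 young ones; over all tested genes this held for 43.0%, for 15.2% with aged above and for 27.9% with aged below. The difference exceeded 0.5 on the log2 scale in Dpep1 alone of the 10 markers, which is 10%, beside 11.3% of all tested genes.

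**Figure D1:**
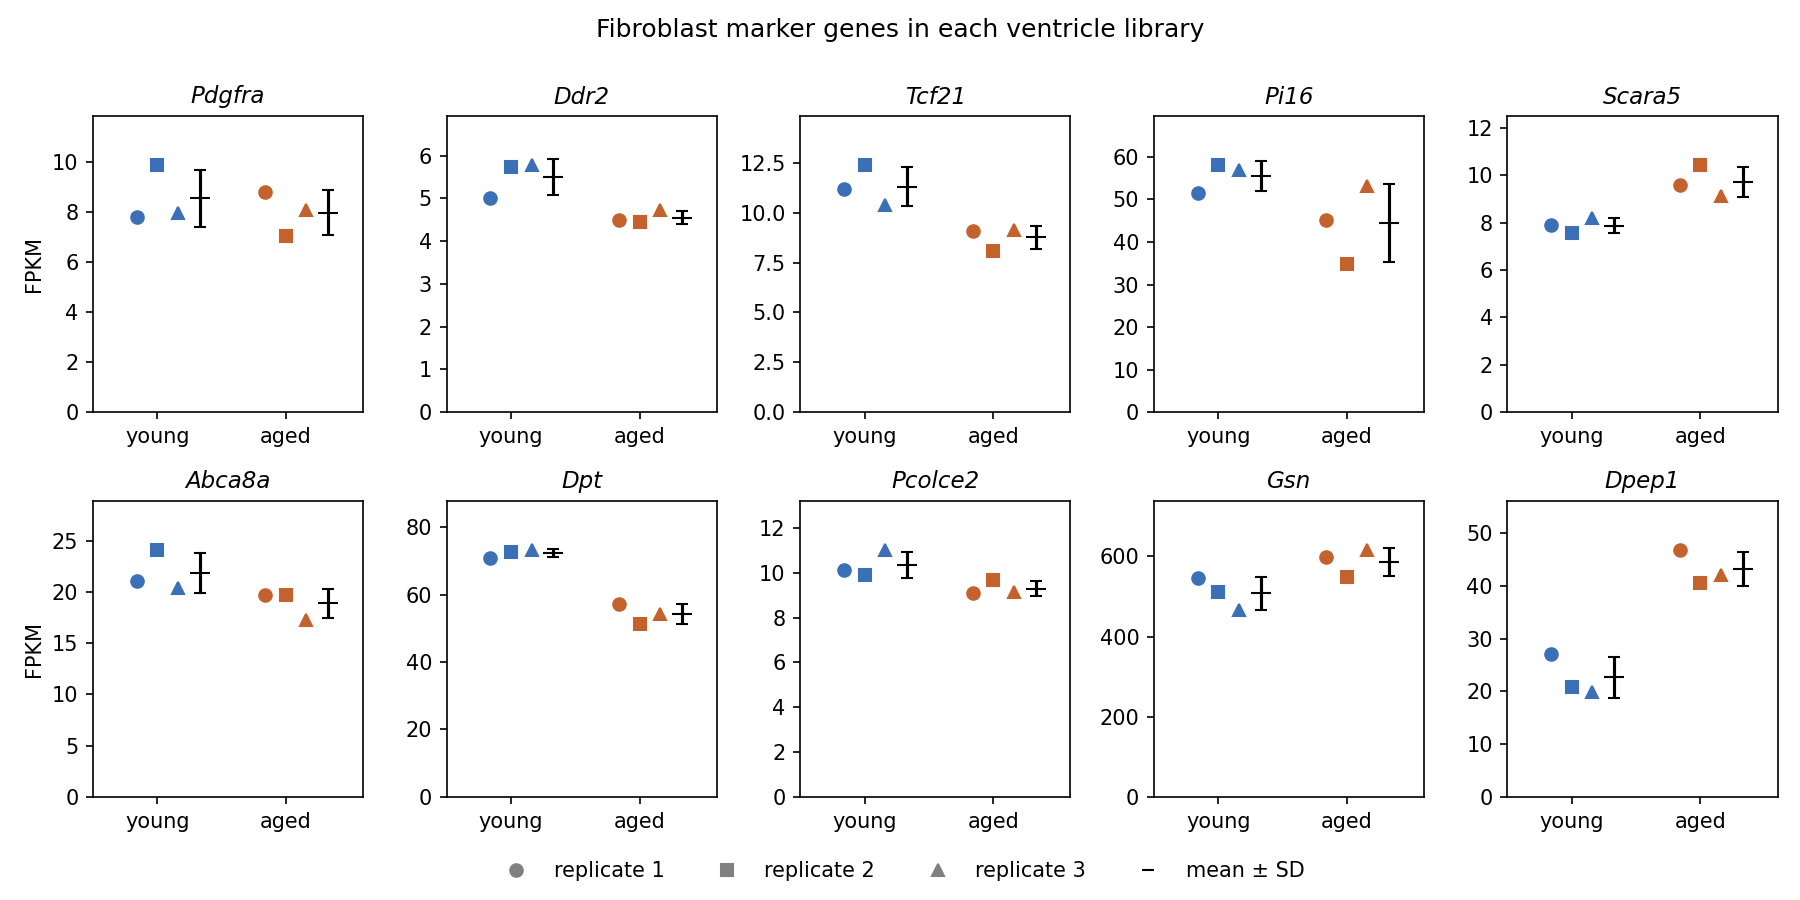
FPKM (vertical axes, each from 0) of the 10 fibroblast markers in the 3 young (blue) and 3 aged (orange) ventricle libraries; symbols mark replicates, and the black bar with whiskers is the mean ± SD of 3 libraries. Dpep1 lay at 19.8 to 27.2 in young and 40.6 to 46.8 in aged, while Pdgfra overlapped between the ages.

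Of the receptors, Pdgfra, the receptor tyrosine kinase by which cardiac fibroblasts are most often identified (chromosome 5, 75151322 to 75198206, plus strand, GRCm38), measured 7.81, 9.87 and 7.97 FPKM in young ventricle and 8.81, 7.03 and 8.1 in aged, here and below in the order of replicates 1 to 3. The highest and the lowest aged value fell inside and just under the young range, so the ages overlapped. The mean was 8.55 ± 1.15 in young and 7.98 ± 0.896 in aged (SD, n = 3), a log2 difference of -0.09 with a 95% interval of -0.33 to 0.16 (limma, adjusted p = 0.595). The interval does not reach a change of 0.4 in either direction. Without young replicate 2, the highest young value, the difference was 0.0097. A difference of this size is inside the spread between replicates.

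Ddr2, a receptor tyrosine kinase that fibrillar collagen activates (chromosome 1, 169972307 to 170110836, minus strand), had the lowest level of the 10 markers. It was at 5, 5.72 and 5.77 FPKM in young ventricle and in aged ventricle at 4.49, 4.44 and 4.72. All aged values were below all young ones, but the gap between the nearest, in aged replicate 3 and young replicate 1, was narrow. The log2 difference was -0.23 (SE 0.0859, 95% interval -0.42 to -0.03), which did not pass (limma, adjusted p = 0.0842). With library quality weights it passed, at an adjusted p of 0.0384.

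Tcf21, a basic helix-loop-helix transcription factor (chromosome 10, 22817263 to 22820143, minus strand), was at 11.2, 12.4 and 10.4 FPKM in young and at 9.09, 8.09 and 9.12 in aged. The highest aged value was below the lowest young one. The gene fell 1.29-fold, from 11.3 ± 0.998 to 8.77 ± 0.586 (SD, n = 3; log2 difference -0.33, SE 0.0858, limma adjusted p = 0.0211). It had the fewest estimated fragments of the 10 markers. Counting alone gives an estimated SD of 8.91% in the lowest library, aged replicate 3, above the 6.69% coefficient of variation between the aged libraries. Between the young libraries the coefficient of variation was 8.82%, at more estimated fragments (186 to 202, against 126 in aged replicate 3). The call was lost without young replicate 2 (-0.27, adjusted p = 0.0778) and without aged replicate 2 (-0.28, adjusted p = 0.0641), which held the highest and the lowest value. It was also lost with quantile normalization (adjusted p = 0.0747) and with no filter on low values (0.051). When aged replicate 3 alone stood for its age, without the libraries that held keratin transcripts, the difference was -0.28. No p-value is given here or below for such a fit, since its spread comes from the young libraries alone.

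Pi16, a secreted or membrane-anchored protein that marks adventitial fibroblasts in several mouse tissues (chromosome 17, 29318796 to 29328903, plus strand), was the marker with the largest spread among aged libraries. Its values were 51.5, 58 and 56.9 FPKM in young and 45.2, 34.8 and 53.1 in aged, and aged replicate 3 lay inside the young range. The coefficient of variation was 20.7% in aged and 6.28% in young, while counting gives an estimated SD of 2.7% in the lowest library. The mean went from 55.5 ± 3.48 to 44.4 ± 9.17 (SD, n = 3; log2 difference -0.33, SE 0.132, limma adjusted p = 0.0948). Pi16 was the marker whose result rested most on 1 library. Without aged replicate 3 it was lower with a difference of -0.47 (adjusted p = 0.0176), and without aged replicate 2 the difference was -0.17 (0.207). When aged replicate 3 stood alone for its age the difference was -0.06. Pi16 passed on TPM (adjusted p = 0.0445) and with library quality weights (0.043).

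Scara5, a class A scavenger receptor that binds ferritin in mouse (chromosome 14, 65666403 to 65764826, plus strand), was at 7.89, 7.56 and 8.19 FPKM in young and at 9.59, 10.4 and 9.14 in aged. Every aged library was above every young one. The rise was 1.23-fold, from 7.88 ± 0.315 to 9.72 ± 0.649 (SD, n = 3; log2 difference 0.27, SE 0.0768, limma adjusted p = 0.0311). The call did not hold on TPM (0.24, adjusted p = 0.0751). It held without aged replicate 3 (adjusted p = 0.0352) and was lost without any other library, at adjusted p-values of 0.0598 (young replicate 1), 0.09995 (young replicate 2), 0.0668 (young replicate 3), 0.0742 (aged replicate 1) and 0.0893 (aged replicate 2). The difference stayed between 0.22 and 0.31 in these 6 fits. Without both aged libraries that held keratin transcripts it was 0.19.

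Abca8a, a member of the A subfamily of ATP-binding cassette transporters, many of which move lipids (chromosome 11, 110025634 to 110097580, minus strand), was at 21.02, 24.1 and 20.4 FPKM in young and at 19.7, 19.7 and 17.3 in aged. Young and aged were separate, and the highest aged and lowest young values were close. The log2 difference was -0.20 (95% interval -0.39 to -0.01) and did not pass (limma, adjusted p = 0.119). It did not pass in any of the 18 alternatives either, where it ran from -0.32 to -0.13.

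Of the matrix genes, Dpt, which encodes dermatopontin, a small matrix protein that binds decorin and collagen fibrils (chromosome 1, 164796663 to 164824274, plus strand), was the most even of the 10 markers within young ventricle. It was at 70.9, 72.7 and 73.2 FPKM in young and at 57.2, 51.4 and 54.3 in aged. The coefficient of variation was 1.7% in young and 5.38% in aged. Counting alone gives an estimated SD of 3.73% in aged replicate 3, at 719 fragments, and the young libraries held 1134 to 1327. No weight is therefore put on the evenness in young. The lowest young value exceeded the highest aged one by more than the range of either age. The gene fell 1.33-fold, from 72.3 ± 1.23 to 54.3 ± 2.92 (SD, n = 3; log2 difference -0.41, SE 0.0597, limma adjusted p = 0.00192). Its call held in every alternative with more than 1 library per age, with differences from -0.46 to -0.34. When aged replicate 3 alone stood for its age the difference was -0.41.

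Pcolce2, an enhancer of the cleavage of the procollagen C-propeptide (chromosome 9, 95637628 to 95695551, plus strand), was at 10.1, 9.92 and 11.01 FPKM in young and at 9.09, 9.66 and 9.14 in aged. The aged values were all lower, and aged replicate 2 lay close under young replicate 2. The log2 difference of -0.14 (95% interval -0.30 to 0.03) did not pass (limma, adjusted p = 0.191), in this fit or in any of the 18 alternatives. Gsn, which encodes gelsolin, an actin-severing protein with a cytoplasmic and a secreted form, is expressed by many cell types besides fibroblasts (chromosome 2, 35256359 to 35307902, plus strand). It was at 547, 512 and 465 FPKM in young and at 598, 548 and 616 in aged. Aged replicate 2 lay just above young replicate 1, and otherwise the ages were well apart. The log2 difference was 0.21 (SE 0.0747, limma adjusted p = 0.0676). It passed with median-of-ratios scaling (0.28, adjusted p = 0.0353), with library quality weights (adjusted p = 0.0263), without young replicate 1 (0.26, adjusted p = 0.0407) and with values corrected for transcript length and GC content (adjusted p = 0.0344). The table gives 1 value per gene, so the forms of gelsolin could not be told apart.

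Dpep1 showed the largest difference of the 10 markers. The gene encodes a membrane-anchored dipeptidase, best known from the kidney, that also cleaves leukotriene D4 (chromosome 8, 123186235 to 123201812, plus strand). It was at 27.2, 20.9 and 19.8 FPKM in young and at 46.8, 40.6 and 42.02 in aged. The lowest aged value was well above the highest young one, in young replicate 1. Dpep1 rose 1.91-fold, from 22.6 ± 3.97 to 43.2 ± 3.22 (SD, n = 3; log2 difference 0.91, SE 0.113, limma adjusted p = 0.000867). The call held in every alternative with more than 1 library per age, with differences from 0.83 to 1.05. In aged replicate 3, where 8 of the 12 genes of stratified epithelium were listed at 0, Dpep1 was at the level of the other aged libraries. When that library alone stood for its age the difference was 0.88.

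**Figure D2:**
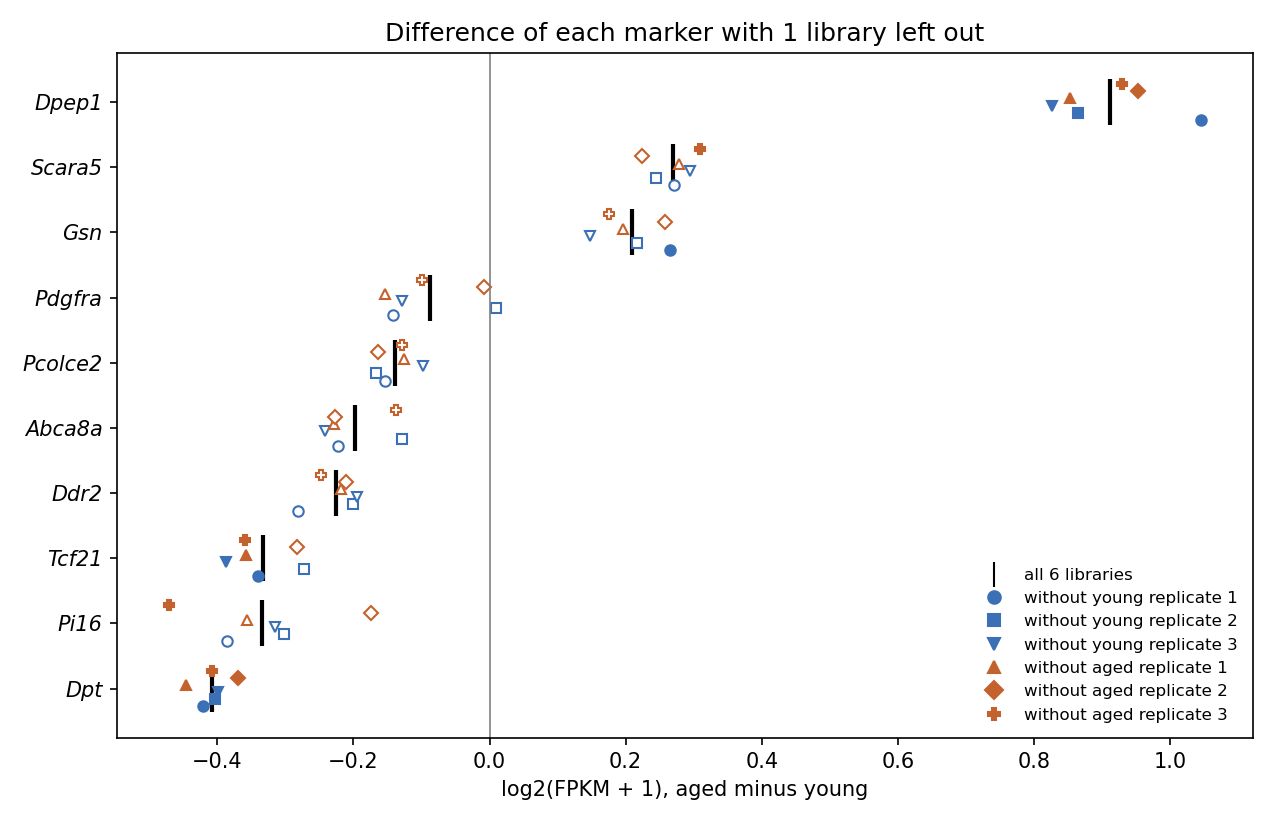
Aged minus young difference in log2(FPKM + 1) (horizontal axis) for each marker with all 6 libraries (black bar) and with 1 library left out (symbols; blue, a young library; orange, an aged one; filled, adjusted p under 0.05). Dpep1 and Dpt stayed filled in all 6 fits, Scara5 was filled only without aged replicate 3, and Pdgfra crossed 0 without young replicate 2.

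The promoters of the called markers are shown because those genes differed between the ages and Tcf21 belongs to a class of factors that bind E-boxes. They are RefSeq sequences of GRCm38.p6, from 250 bases before to 50 after the annotated start, and the capitals mark E-boxes, written CANNTG, which read the same on both strands. The table had an entry for 9 of the 10 markers, not for Scara5. The windows are chr8:123185985-123186284 (plus strand) for Dpep1, chr1:164796413-164796712 (plus strand) for Dpt and chr10:22820094-22820393 (minus strand) for Tcf21.
Dpep1: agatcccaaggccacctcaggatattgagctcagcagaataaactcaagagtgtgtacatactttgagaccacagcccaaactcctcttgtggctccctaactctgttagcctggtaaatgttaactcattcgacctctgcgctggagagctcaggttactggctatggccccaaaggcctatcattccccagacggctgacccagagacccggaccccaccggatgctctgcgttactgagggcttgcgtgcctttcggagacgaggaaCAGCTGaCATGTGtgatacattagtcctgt
Dpt: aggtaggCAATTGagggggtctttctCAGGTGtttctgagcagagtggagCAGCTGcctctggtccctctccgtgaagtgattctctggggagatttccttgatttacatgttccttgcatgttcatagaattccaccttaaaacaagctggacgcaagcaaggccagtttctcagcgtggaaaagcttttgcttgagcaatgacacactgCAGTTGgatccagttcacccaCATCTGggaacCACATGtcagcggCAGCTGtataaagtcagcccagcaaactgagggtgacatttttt
Tcf21: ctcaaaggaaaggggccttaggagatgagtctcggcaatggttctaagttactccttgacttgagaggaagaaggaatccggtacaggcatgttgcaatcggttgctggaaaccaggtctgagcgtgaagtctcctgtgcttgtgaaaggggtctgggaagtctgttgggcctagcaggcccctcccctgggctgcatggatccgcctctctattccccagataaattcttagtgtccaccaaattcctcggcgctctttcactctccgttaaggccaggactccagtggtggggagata
The Dpt window held 7 E-boxes, the Dpep1 window 2, both after the start, and the Tcf21 window 0. Of 32851 mouse promoters of this length 0.177% held at least 7, 39.6% at least 2 and 27.7% none, and Dpt was singled out after its matches were seen. Of the 11 windows of the 9 markers with an entry 10 held an E-box, beside 72.3% of all promoters. Counted by marker, 8 of the 9 had an E-box in at least 1 window. On both strands, a GC box (GGGCGG) was found for 2 markers, Gsn and Pcolce2 (35.7% of all promoters), a CCAAT box (CCAAT) for 2, Gsn and Pi16 (37.4%), a TATA box (TATAAA) for 2, Dpt and Ddr2 (13.6%), and a TEAD motif (CATTCC) for 2, Dpep1 and Abca8a (14.7%). The AP-1 motif (TGANTCA) was found in 0 of 11 marker windows and in 7.81% of all promoters. Gsn has 3 starts in the table, with a GC content of 54.7% to 63.7%. The GC content of the other markers' windows ran from 39% (Ddr2) to 63.7% (Pcolce2), with a median over all promoters of 52.7%. The Ddr2 window, chr1:170088895-170089194 (minus strand), lies inside the gene span given above, away from its upstream end at 170110836. Such matches are a description of letters and were not tested for binding.

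The order of the markers by level also differed between the ages. Gsn was highest in both, followed by Dpt, Pi16, Dpep1 and Abca8a, and Ddr2 was lowest. In young ventricle Pi16, at 51.5 to 58 FPKM, stood clear of Dpep1, at 19.8 to 27.2, while Dpep1 overlapped Abca8a, at 20.4 to 24.1. In aged ventricle Dpep1, at 40.6 to 46.8, lay inside the range of Pi16, at 34.8 to 53.1, and clear of Abca8a, at 17.3 to 19.7. Scara5 went from the ninth to the sixth place and Tcf21 from the sixth to the eighth, but in aged ventricle Scara5, Pcolce2 and Tcf21 each overlapped the next gene in the order, and Pdgfra was clear of Ddr2. Pi16 also overlapped Dpt there, at 51.4 to 57.2, from which it was clear in young.

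Whether a marker moved apart from the rest was asked within libraries, by subtracting from each gene the mean log2(FPKM + 1) of the markers, for a marker that of the other 9. Scaling of the libraries bears little on this comparison: the difference of Dpep1 was 1.05 as deposited, 1.07 on TPM and 1.05 with median-of-ratios scaling, and that of Scara5 was 0.34, 0.36 and 0.33. The mean over the 10 markers was 4.62, 4.67 and 4.6 for young and 4.64, 4.53 and 4.62 for aged replicates 1 to 3, so it overlapped between the ages and was lowest in aged replicate 2. On this scale Dpep1, Scara5 and Gsn rose and Dpt and Tcf21 fell, 5 of 10 markers. Of all tested genes 10.5% were called higher and 12.8% lower, 23.2% in all, with all 10 markers as the reference for the other genes. Each marker enters the reference of the other 9, so the 5 calls are not separate results. Dpep1 stood 0.22 above the other markers in young replicate 1 and 0.24 below them in the other young libraries, and 0.90 to 1.04 above them in aged. Its difference was 1.05 (SE 0.116, limma adjusted p = 0.00011).

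Gsn passed on this relative scale, unlike on the deposited one. It stood 4.74 to 4.98 above the other markers in young and 5.08 to 5.17 in aged, a difference of 0.27 (SE 0.0679, limma adjusted p = 0.0152). The call of Gsn was lost without young replicate 2 (0.26, adjusted p = 0.0558) or young replicate 3 (0.22, adjusted p = 0.0837), and with a prior variance without a trend (adjusted p = 0.0682). The difference of Scara5 was 0.34 (adjusted p = 0.039). Its call was lost without any of the young libraries (adjusted p = 0.0735, 0.138 and 0.0635 without young replicates 1 to 3) and without aged replicate 1 (0.0655) or 2 (0.101). It was also lost with no filter on low values (0.0706), a prior variance without a trend (0.0532) and a replicate block (0.067). Dpt, with -0.42 (SE 0.0657, adjusted p = 0.00122), passed in every alternative with more than 1 library per age, as did Dpep1. Tcf21, with -0.33 (adjusted p = 0.0197), was not called without young replicate 2 (adjusted p = 0.0886) or aged replicate 1 (0.0529). Pi16 had the same difference of -0.33 and a larger error (SE 0.121, adjusted p = 0.0701), and passed without aged replicate 3 (-0.47, adjusted p = 0.0047). Without aged replicates 1 and 2 together the relative differences were 0.32 for Gsn, 0.23 for Scara5, -0.30 for Tcf21, 0.99 for Dpep1 and -0.44 for Dpt.

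**Figure D3:**
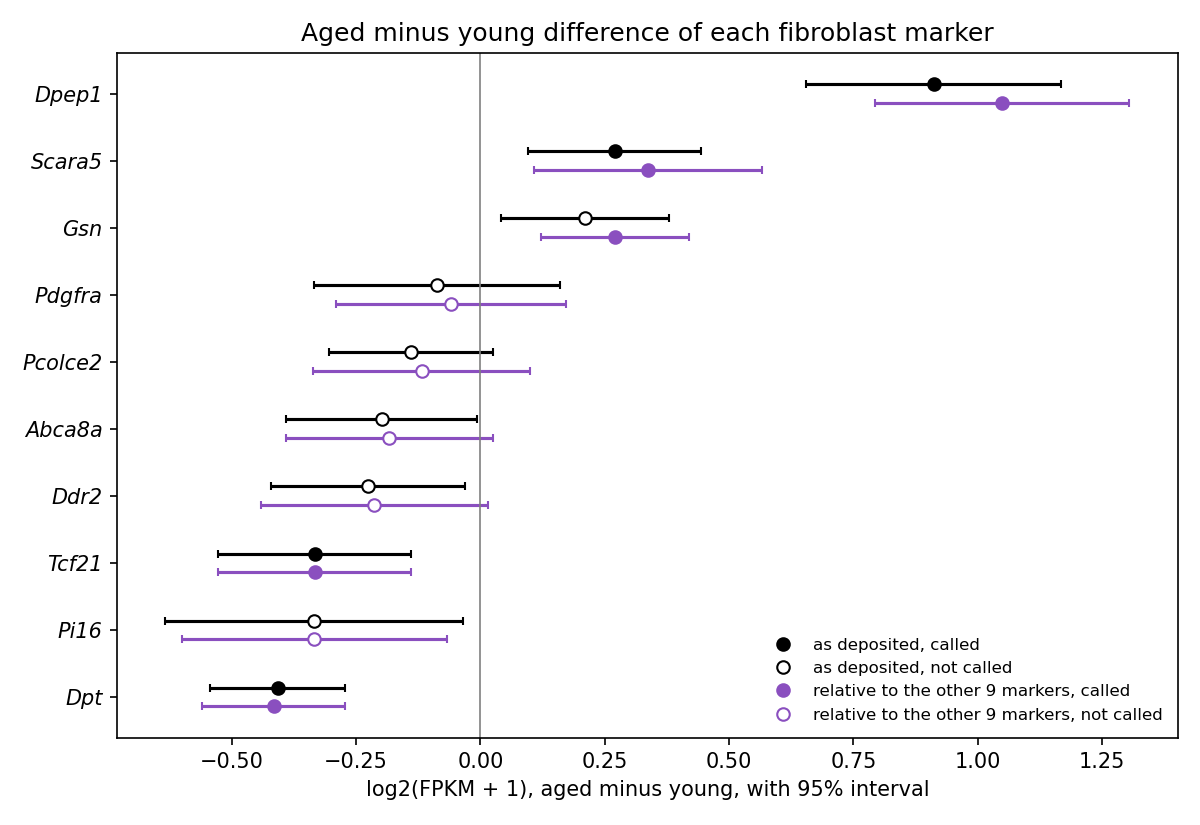
Aged minus young difference in log2(FPKM + 1) with its 95% interval (horizontal axis) for each marker as deposited (black) and relative to the mean of the other 9 markers in the same library (purple); filled points have an adjusted p under 0.05 (limma, 3 libraries per age). Dpep1 stands apart at 0.91 and 1.05, and Gsn is filled on the relative scale alone.

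Libraries of an age differed in the markers together. Aged replicate 2 was the lowest aged library for 7 of the 10 markers (Pdgfra, Tcf21, Dpt, Gsn, Ddr2, Pi16 and Dpep1), while over all tested genes it was the lowest for 31.5%. The same library was the lowest for 17 of 25 other cardiac fibroblast genes and 8 of 15 adventitial ones, and it held the most epithelial transcripts. Among the young libraries the lowest values of the markers were split, with 4 in replicate 1, 2 in replicate 2 and 4 in replicate 3. For the other cardiac fibroblast genes young replicate 1 was the lowest in 18 of 25, beside 45% of all tested genes. The part of epithelial or dividing cells in these values was not tested. Summed over the 9 markers other than Gsn, the level was 213 to 221 FPKM in young and 210, 186 and 207 in aged, where aged replicate 2 was again lowest and the ages did not overlap. With Gsn, which makes up most of the sum, it was 760, 733 and 679 in young and 808, 734 and 823 in aged, so the ages overlapped and the aged mean was the higher.

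For 7 markers the level was also set against 1 gene of the same family, and for 5 of these pairs the ratio was higher in all aged than in all young libraries. The partners were picked by hand with earlier results known, and no share over other gene pairs was computed, so the count is a description of these pairs. Pdgfra was compared with Pdgfrb, the receptor of pericytes, which was at 30, 36.1 and 32.1 FPKM in young and at 23.4, 20.9 and 23.05 in aged and fell (log2 difference -0.52, limma adjusted p = 0.00263). The log2 ratio of Pdgfra to Pdgfrb went from -1.82 ± 0.0572 to -1.39 ± 0.0679 (SD, n = 3). Ddr1, the collagen receptor of epithelial cells, fell from 10.1, 10.5 and 10.7 FPKM to 7.32, 6.9 and 7.64 (-0.46, adjusted p = 0.00259), and the ratio of Ddr2 to Ddr1 went from -0.81 ± 0.0616 to -0.58 ± 0.0342. Pcolce, the more abundant enhancer of procollagen cleavage, fell from 68.4, 85.5 and 79.6 to 51.1, 44.6 and 55.7 (-0.62, adjusted p = 0.00334), and the ratio of Pcolce2 to Pcolce went from -2.79 ± 0.176 to -2.32 ± 0.199. In these 3 pairs the family gene was called lower and the marker was not called.

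The ratio of Scara5 to Scara3, a scavenger receptor gene at 1.05 to 1.37 FPKM, rose by 0.31 and that of Gsn to the villin family gene Svil by 0.30, again with no overlap. The rise for Gsn was seen against Svil and need not hold for another partner. Capg, another gene of its family, had a difference of 0.34 between the ages, larger than the 0.21 of Gsn. Capg overlapped between the ages and was not called (limma, adjusted p = 0.169), and the ratio of Gsn to Capg was not computed. The ratios of Pi16 to Pi15 and of Abca8a to Abca8b overlapped between the ages (aged minus young 0.20 and -0.15). With 3 libraries per age, 0.1 is the smallest p of a two-sided exact permutation test. The 5 separated pairs reached that value, and 0.14 after adjustment over the 7 pairs; Abca8a gave p = 0.2 and Pi16 p = 0.6 (adjusted 0.233 and 0.6 in exact permutation tests).

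**Figure D4:**
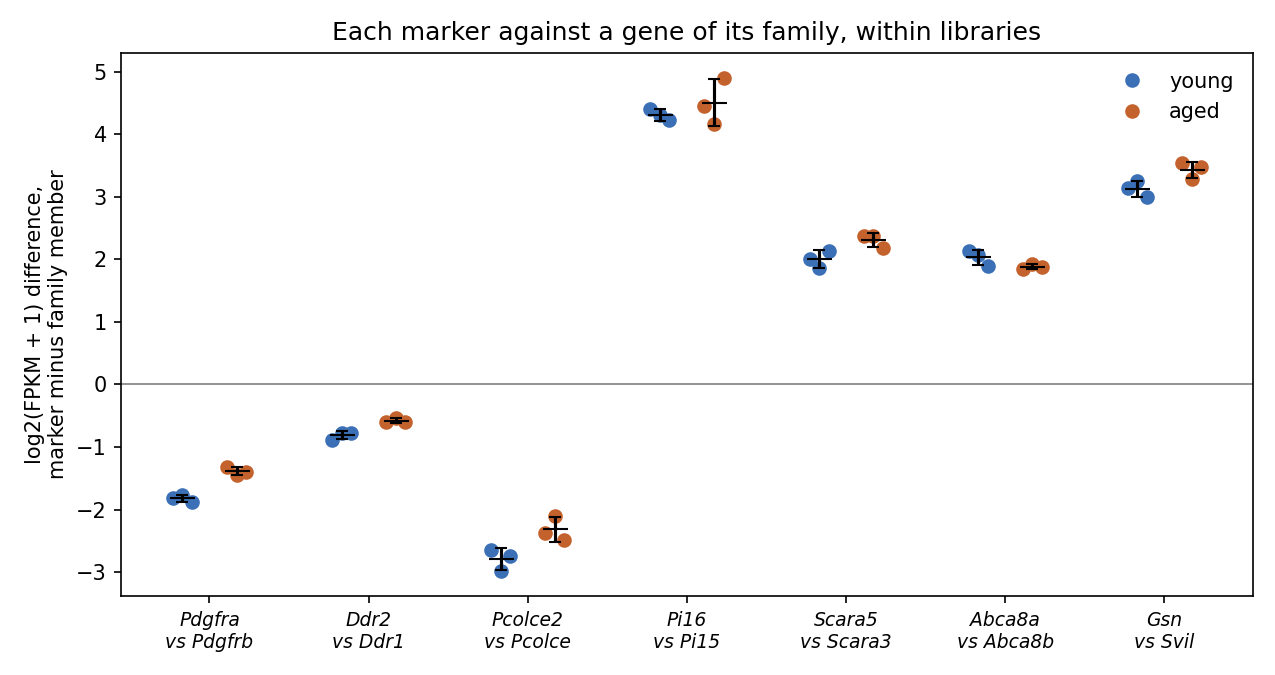
Difference in log2(FPKM + 1) between each marker and a gene of its family in the same library (vertical axis), for 3 young (blue) and 3 aged (orange) libraries with mean ± SD (black). The aged points lie wholly above the young ones for Pdgfra, Ddr2, Pcolce2, Scara5 and Gsn, and overlap them for Pi16 and Abca8a.

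The rest of these families moved in part, where 17.1% of all tested genes were called lower and 9.32% higher. Of the ligands, Pdgfd rose (6.24, 6.98 and 6.35 FPKM in young, 8.8, 9.83 and 10.6 in aged; log2 difference 0.51, limma adjusted p = 0.00383), while Pdgfa, Pdgfb and Pdgfc did not pass; Pdgfrl, a receptor-like gene, fell (-0.65, adjusted p = 0.0139). Bmp1, the procollagen C-proteinase that Pcolce2 enhances, fell from 21.1, 24.2 and 23.6 to 14.8, 12.3 and 13.8 (-0.71, adjusted p = 0.000681). The 4 close relatives of Abca8a, namely Abca8b, Abca9, Abca6 and Abca5, did not pass, at adjusted p-values of 0.0952 to 0.767. In the gelsolin family Scin, at 0.64 to 0.8 in young and 1.14 to 1.57 in aged, rose and 3 others tested, Capg, Svil and Flii, did not pass. Dpep2, the relative of Dpep1, was at 0.94 to 1.37 FPKM over all 6 libraries and did not pass (adjusted p = 0.998). Of 4 tested relatives of Pi16 Pi15 and Glipr2 fell, and of 5 tested bHLH genes Twist2 fell and Hand2 rose.

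Other fibroblast genes were described in the same way, beside 17.1% of all tested genes called lower and 9.32% called higher. Of 25 other cardiac fibroblast genes 10 fell and 1 rose (limma over all genes; median log2 difference -0.28, all tested genes -0.06). The falls included the collagen chains Col3a1 (221 ± 38.1 to 49.01 ± 9.93 FPKM, SD, n = 3), Col1a1 and Col1a2 and the laminin chain Lamc1; the rise was complement C3 (log2 difference 2.55, adjusted p = 0.000447). Of 15 adventitial fibroblast genes 6 fell, among them Col14a1 (-1.43, adjusted p = 0.0002) and Cd34, which endothelium also expresses, and 1, the matrix gene Efemp1, rose (2.02, adjusted p = 0.00141; median -0.28). Of 13 tested genes of activated fibroblasts and myofibroblasts 8 fell and the other 5 did not pass (median -0.57), with Acta2, Fn1, Ckap4 and Tnc at the smallest p; Acta2 is mainly a gene of smooth muscle. For the markers the corresponding counts were 2 and 2 of 10. The lists are not of equal size or level, and no test of one list against another was made.

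Genes that mark other cells of the ventricle stood as follows beside these results. The shares over all tested genes were 17.1% called lower and 9.32% called higher. Of 9 endothelial markers 5 fell, among them the cell junction genes Cdh5 and Esam, of 7 pericyte markers 5 fell, of 6 smooth muscle markers 3 fell, and of 8 macrophage markers 2, Csf1r and Mrc1, fell; the others of these lists did not pass. Of 9 cardiomyocyte markers 3, Myl2, Tnnt2 and Tnni3, rose and the other 6 did not pass. Summed, the endothelial markers lay at 473 to 573 FPKM in young and 388 to 405 in aged, the pericyte markers at 370 to 446 and 321 to 341, and the macrophage markers at 339 to 353 and 275 to 329. Of 5 tested epicardial markers Wt1 and Aldh1a2 fell. The sum of all 8 listed epicardial genes, tested or not, was 12.4 to 24.5 in young and 9.21 to 12.04 in aged, highest in young replicate 3. No gene of these lists was listed at 0 in all 6 libraries. The part of these cell types in the values of the fibroblast markers was not tested.

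**Figure D5:**
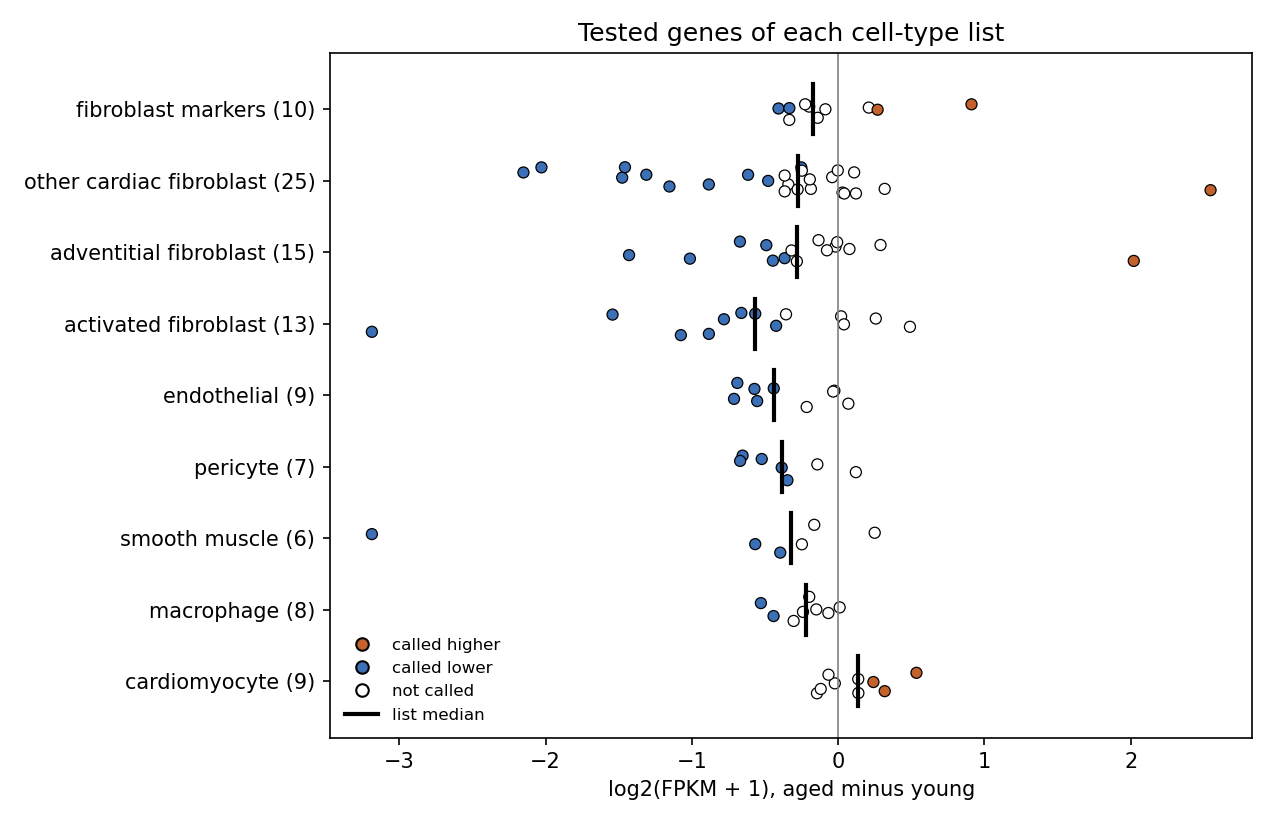
Aged minus young difference in log2(FPKM + 1) (horizontal axis) of every tested gene of 9 cell-type lists (rows, with the number of genes); orange, called higher; blue, called lower; white, not called; black bar, list median; vertical position within a row is arbitrary. The markers span -0.41 to 0.91, while single genes of the other fibroblast lists reach -3.19 and 2.55 (C3). The -3.19 is Acta2, which is also in the smooth muscle list, and without it the lowest is Col3a1 at -2.15.

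The genes most like a marker over the 6 libraries were found by Pearson's r on log2(FPKM + 1), as a description. For Dpep1 they were Tusc2, Aldh2 and Asb10 (r = 0.997, 0.995 and 0.992), of which Aldh2, an aldehyde dehydrogenase gene, was at a mean of 76.7 FPKM in young and 126.6 in aged. For Dpt they were P3h1, which encodes a collagen prolyl hydroxylase, Nt5e and Cdc42se2 (r = 0.999, 0.998 and 0.998), and for Tcf21, Nsmf and Nxn were among the 3 closest (r = 0.995 for both). For Ddr2 they were Gprc5b, Galnt18 and Top2a, the last a gene of dividing cells at a mean of 6.14 FPKM in young and 1.39 in aged. None of the 3 genes closest to any marker was another marker. With predicted gene models left out, an r of at least 0.9 was reached by 1264 tested genes for Dpt, 1233 for Ddr2 and 597 for Dpep1. For Tcf21 it was 539, for Scara5 455, for Pcolce2 392, for Pi16 179, for Abca8a 169, for Gsn 152 and for Pdgfra 57. Over libraries of 2 ages a high r also reflects a difference between the ages that both genes share.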

How the data were processed

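Poly(A) RNA was sequenced as paired reads of 100 bases on the BGIseq500 platform, per the labels' protocols. The authors deposited 1 table of FPKM to 2 decimals for 18181 genes, per the file headers. RSEM 1.2.12, HISAT2 2.0.4, DESeq2 1.4.5, Bowtie2 2.2.5 and the build mm10 are named in the submitters' processing notes, with no roles. Annotation, filters and use of strand were not stated. Annotated antisense genes overlap exons of Pdgfra, Ddr2 and Pi16, so their reads may be mixed. Exact windows of 100 bases shared with other genes made up 3.48% of Pdgfra and 2.15% of Pi16 coding transcripts (GENCODE vM21) and 0% of the other 8 markers.

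The 11860 genes whose mean reached 1 FPKM were tested on log2(FPKM + 1) with limma's lmFit and trended eBayes (version 3.58.1, R 4.3.3), aged minus young, two-sided, with Benjamini-Hochberg adjustment over all of them and calls at 0.05. Log2 differences are on that scale and shrink towards 0 for genes of low level; folds are ratios of mean FPKM. Titles gave each sample's age. The fit was tested on simulated data. Fragments per library were estimated from genes with 1 transcript of 800 to 2000 bases, with 0 or 200 bases subtracted from the length. The step of 1 fragment was sought in a fixed narrow window, which bounds the depths that could be found. Counting errors derived from these estimates cover counting alone. Coordinates and promoters are RefSeq on GRCm38.p6, the assembly called mm10. The markers and gene lists were chosen with earlier results of these data known. Named genes are the 10 markers, the genes of their families and genes among the 3 most correlated with a marker. From each other list, up to 4 called genes with the smallest p are named. C3 (which completes a count) and Krt13 and Perp (which describe libraries) fall outside this rule or were singled out after their values were seen. Alternatives were each library left out, a replicate block, library quality weights, robust empirical Bayes, a prior without a trend, quantile normalization, median-of-ratios scaling, TPM, no filter or one at 5 FPKM, and 0.1 as pseudocount; the length and GC correction (a spline with 4 degrees of freedom, 11736 genes) was added after seeing the data. Quantile normalization was not applied to the relative comparison. Exact tests used scipy 1.17.1 in Python 3.11.15.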

Additional observations from a re-analysis of the deposited data

How the results depend on the processing

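Among the 350 values of single markers under alternatives, 309 kept their direction and their side of the threshold, 29 lost a call, 10 gained one and 2 changed sign. Both sign changes were Pdgfra without young replicate 2 (0.0097, and 0.026 relative to the other markers); over all libraries left out in turn its difference ran from -0.15 to 0.0097, and relative to the others from -0.12 to 0.026. Of the 10 markers 2 were higher and 2 lower as reported; 1 was higher on TPM or with a replicate block and 3 with median-of-ratios scaling, library quality weights or the length and GC correction; 1 was lower with no filter on low values or with quantile normalization, 3 on TPM and 4 with library quality weights. Leaving out 1 library gave 1 to 2 higher and 1 to 3 lower markers, and over all genes 718 to 1020 higher and 1164 to 1958 lower, from 1105 and 2026. When aged replicate 3 alone stood for its age, assumed to vary like the young libraries, 1 marker was higher and 1 lower, and 420 and 552 of all genes. Relative to the other markers, 3 were higher and 2 lower. With a prior variance without a trend 1 was higher, and with 1 library left out 1 to 3 were higher and 1 to 3 lower. Same-numbered young and aged libraries did not deviate together (correlations across genes 0.0413, -0.0795 and 0.0378 for numbers 1 to 3), so the numbers were not taken as pairs; with the replicate block 1002 genes were higher and 1783 lower, and Scara5 was not called (adjusted p = 0.0654), while Pi16 relative to the other markers was (0.0402). Scaling moved the median difference over tested genes from -0.06 to -0.10 (TPM), 0.00094 (median of ratios) or -0.0048 (quantiles), and the share of higher genes among calls from 35.3% to 28.04%, 50.3% or 46.7% in that order. The cause of these changes was not tested. Among the markers the estimated counting error was largest for Tcf21, at 8.91% in its lowest library. It was 5.98% for Scara5 (young replicate 2), 5.38% for Ddr2 and 5.45% for Pcolce2 (both aged replicate 3). In these 3 it exceeded the coefficient of variation of that age, 4% for Scara5, 3.28% for Ddr2 and 3.4% for Pcolce2.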
